A study of Mus musculus with 8 samples.

Results

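Imprinted genes and their control regions were followed through hepatocyte methylomes of mid-aged and young mice. They comprised 40 imprinted genes, taken as a named list, with every tested CpG inside the gene body or up to 5000 bases upstream of its annotated start on mm10. A CpG was tested where each of the 8 mice had at least 5 reads with both strands summed, and 2245 of the 897285 tested CpGs belonged to the 40 genes. A CpG or cluster was called near 50% where its methylation lay between 30 and 70% in every mouse, and 129 of the 2245 CpGs (5.75%) met this rule, beside 1.27% of other autosomal CpGs and 8.25% of CpGs on the X chromosome. Clusters were runs of tested CpGs with at most 100 bases between neighbours, split at 500 bases and holding at least 5 CpGs, and 143 of 54507 clusters lay in the 40 genes. The level itself chose the near-50% set, so that level is a description and no result.

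The hepatocytes came from perfused livers of female C57Bl6/J mice on a control diet, of which 4 were 40 weeks old (mid-aged) and 4 were 10 weeks old (young). Methylation was measured by reduced representation bisulfite sequencing (RRBS), in which the enzyme MspI cuts at CCGG and the fragment ends are read after bisulfite conversion. The labels name no transgene or drug, and all 8 mice shared strain and sex. Since the strain is inbred, a read cannot be given to the maternal or the paternal copy, and a level near 50% does not show which copy was methylated.

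Read counts summed over CpGs were 46321447 to 118395064 per library, and a read counts once for each CpG that it covers. A tested CpG had a median coverage between 41 and 76 in the mid-aged libraries and between 29 and 51 in the young ones, so the older group was on the whole read more deeply. Reads carry no molecular identifiers, and intervals that rest on read counts cover counting error only. The cell types could be checked at few promoters: 2 of 12 hepatocyte markers had at least 3 tested CpGs near their start, with a median of 20.8% in mid-aged and 14.9% in young mice, against 74.4% and 79.0% at 2 of 9 leukocyte and Kupffer cell markers. The medians were 12.2% and 11.6% at 6 of 6 stellate cell markers, 2.65% and 2.66% at 1 of 7 endothelial markers, and 40.7% and 38.5% at 2 of 6 cholangiocyte markers. The part of cell composition in the results was not tested. P-values rest on the spread between these mice and, since variances and dispersions were moderated, also on that of other features. The intervals from limma do so too.

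Imprinted genes are transcribed from a single parental copy. Their clusters are steered by control regions whose methylation is set in the egg or the sperm and kept on that copy in body cells, which leaves the other copy free of methylation. In mice most control regions carry the maternal mark and coincide with a promoter, such as those of Snrpn, Mest, Peg10, Plagl1, Kcnq1ot1 and Airn, whereas those of H19, Meg3 and Rasgrf1 carry the paternal mark and lie between genes or upstream. The KRAB zinc finger protein ZFP57 binds the letters TGCCGC when the CpG within is methylated and keeps the mark in place in the early embryo.

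To show what was measured, each cluster was represented by the 120 bases holding most of its tested CpGs (GRCm38, plus strand), and TGCCGC was searched on both strands, which reads GCGGCA on the minus strand. The letters stood in 11 of the 50 windows of imprinted clusters with a mean of 30 to 70% (22.0%), in 4 of 32 with a mean under 10% (12.5%) and in 5317 of all 54507 windows (9.76%). At 30 to 70% they stood in 76 of 468 windows on the X chromosome (16.2%) and in 243 of 3570 on other autosomal clusters (6.81%). Of all windows with a mean under 10%, 3343 of 23561 held them (14.2%). The windows held a median of 10 CpGs for the imprinted clusters at 30 to 70%, 13.5 for those under 10%, 8 for all 143 and 7 for all clusters. The median was 9 for X clusters and 6 for other autosomal clusters at 30 to 70%, and 11 for all clusters under 10%. Windows with more CpGs have more room for a match that contains CG. The promoter windows of Mcts2, Snrpn and Peg13, with the letters in capitals, are printed as examples of control regions, followed by that of Kcnq1ot1, in which the letters were absent.
Mcts2, chr2:152686853-152686972: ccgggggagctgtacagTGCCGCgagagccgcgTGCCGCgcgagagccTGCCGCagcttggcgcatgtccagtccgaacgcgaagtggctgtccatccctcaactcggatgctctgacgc
Snrpn, chr7:60004817-60004936: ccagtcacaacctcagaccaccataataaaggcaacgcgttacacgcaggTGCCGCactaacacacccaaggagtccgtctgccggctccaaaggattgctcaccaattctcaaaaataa
Peg13, chr15:72809865-72809984: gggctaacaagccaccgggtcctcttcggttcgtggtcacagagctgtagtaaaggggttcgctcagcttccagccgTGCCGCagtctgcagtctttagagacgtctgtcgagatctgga
Kcnq1ot1, chr7:143295495-143295614: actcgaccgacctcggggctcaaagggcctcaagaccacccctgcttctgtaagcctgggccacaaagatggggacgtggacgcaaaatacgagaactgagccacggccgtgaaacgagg

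The CTCF sites of the control region upstream of H19 could not be measured. This region insulates Igf2 from enhancers shared with H19 when CTCF, an insulator protein, binds the unmethylated maternal copy. The letters CCGCNNGGNGGCAG were searched over the H19 gene and the 5000 bases upstream on both strands, and 4 matches were found, all on the minus strand and 2166 to 3891 bases upstream of the start. None had a tested CpG within 200 bases. They are printed on the minus strand, with the match in capitals and 8 bases on either side (GRCm38).
H19 site at 2166 bases, chr7:142580301-142580330: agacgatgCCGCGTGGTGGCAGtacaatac
H19 site at 2621 bases, chr7:142580756-142580785: ggatgctaCCGCGCGGTGGCAGcatactcc
H19 site at 3647 bases, chr7:142581782-142581811: cagggttgCCGCACGGCGGCAGtgaagtct
H19 site at 3891 bases, chr7:142582026-142582055: gggagttgCCGCGTGGTGGCAGcaaaatcg

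The clusters of imprinted genes were spread over all levels. Of the 143, 32 had a mean over the 8 mice under 10%, 12 lay at 10 to 30%, 50 at 30 to 70%, 21 at 70 to 90% and 28 above 90%. The share at 30 to 70% was 35.0%, compared with 6.73% of the 53063 other autosomal clusters and 36.0% of the 1301 clusters on the X chromosome, of which female cells silence a copy. By the stricter rule in every mouse, 17 imprinted clusters (11.9%) were near 50%, against 3.42% of other autosomal clusters and 16.5% of X clusters. The 50 clusters were not centred on 50%: 37 of them lay at 55 to 70%.

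**Figure D1:**
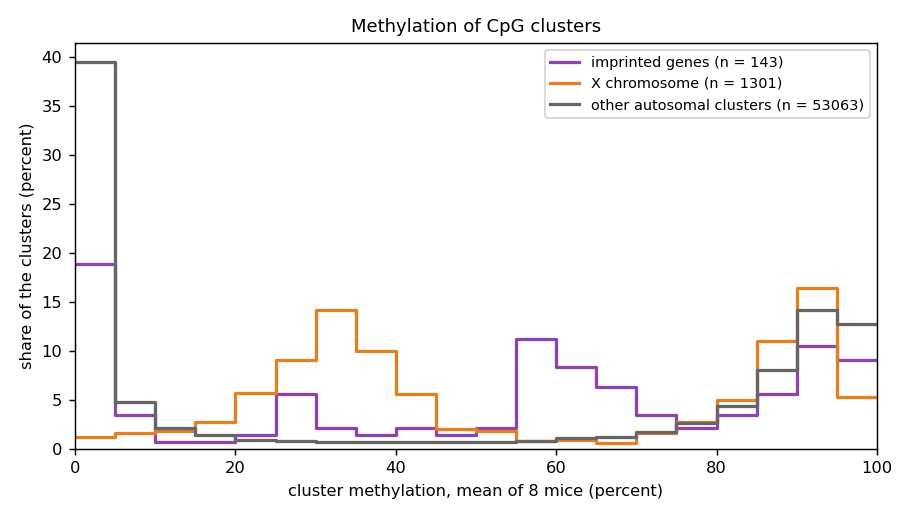
Share of clusters (vertical axis, percent of the set) by mean methylation over the 8 mice (horizontal axis, bins of 5 percentage points) for imprinted genes, the X chromosome and other autosomal clusters. Imprinted clusters form a group at 55 to 70% that holds 37 of 143 clusters, and 32 of 143 lie under 10%.

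Near 50% in every mouse was a narrow rule for these data. The clusters nearest to the limit on the inside belonged to Nespas and Gnas and reached 68.5, 67.8 and 67.8% in their highest mouse, and the nearest outside, 2 of Gnas and that at the Meg3 start, reached 70.4, 70.4 and 70.6%. The control promoters of Snrpn, Mest, Peg10, Kcnq1ot1, Grb10, Mcts2, Peg13 and Impact, and the cluster next to the Airn start, all missed the rule through 1 or more mice. Of the 40 genes, 26 had a near-50% CpG, 15 had a near-50% cluster and 27 had a cluster with a mean of 30 to 70%. H19 and Mirg, a non-coding RNA of the Meg3 cluster, had no cluster.

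**Figure D2:**
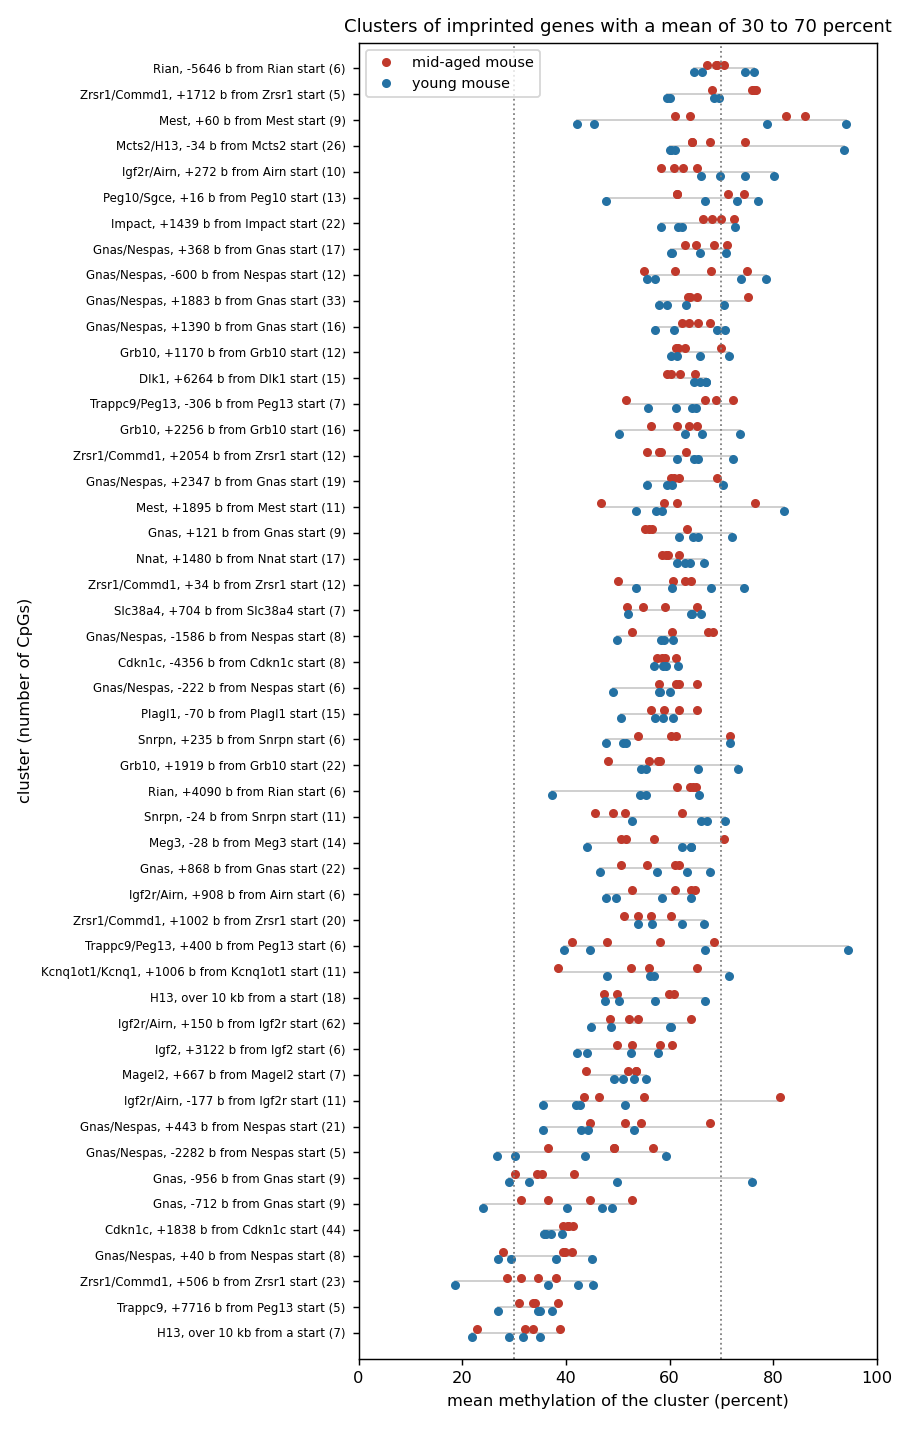
Methylation of the 50 clusters of imprinted genes with a mean of 30 to 70% (horizontal axis, percent) in each mid-aged and young mouse, ordered by mean, with grey lines from the lowest to the highest mouse and dotted lines at 30 and 70%. The mice spread widely at Mest, Mcts2 and Peg13 and narrowly at Cdkn1c, Dlk1 and Nnat. The ages are apart in 2 of the 50 lines, at Cdkn1c and Airn, compared with 6.16% of all clusters.

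At the imprinted starts of Plagl1, Zrsr1 and Slc38a4 the mice of both ages overlapped. Plagl1 encodes a zinc finger transcription factor, and the cluster at its imprinted start (chr10:13090623-13090813, 15 CpGs in a non-coding exon) measured 61.9, 56.4, 65.3 and 59.0% in the 4 mid-aged mice and 60.8, 58.7, 50.7 and 57.2% in the 4 young mice. The group means, here and below mid-aged against young, were 60.6% ± 3.87 against 56.8% ± 4.36 (SD, n = 4 each). Zrsr1, a retrogene for a splicing factor that lies inside Commd1, had 5 clusters with a mean of 30 to 70%, and that with the near-50% rule met (chr11:22972845-22973168, 20 CpGs, UTR) measured 51.3, 60.4, 53.9 and 56.4% in the 4 mid-aged mice and 54.0, 66.6, 62.4 and 56.6% in the 4 young mice. Its host Commd1, a regulator of copper handling, was unmethylated at its own promoter, where all mice lay between 0.348 and 1.77%. Slc38a4 encodes an amino acid transporter of hepatocytes, and the cluster 704 bases past its start (chr15:97055184-97055320, 7 CpGs, intron) measured 51.8, 59.0, 65.3 and 54.95% in the 4 mid-aged mice and 64.1, 66.0, 64.3 and 51.9% in the 4 young mice.

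Mest, Mcts2 and Peg13 were among the clusters with the widest spread. Mest encodes a hydrolase-like protein linked to growth, and at its start (chr6:30738074-30738153, 9 CpGs, UTR) the mice measured 61.0, 63.9, 82.6 and 86.2% in the 4 mid-aged mice and 78.9, 42.2, 45.3 and 94.0% in the 4 young mice. High and low values stood in both groups. The 9 CpGs had similar levels: the SD over CpGs was 1.1 points, whereas the SD between mice was 20.1 points. Since 8 of them lay on the same MspI fragment, they shared most reads and were not separate measurements. The median reads per CpG were 13, 36, 28 and 32 in the mid-aged mice and 21, 35, 11 and 17 in the young mice. Counting reads alone would give an SD of 9.64 points at these depths. Mcts2, a retrogene inside H13, measured 64.3, 64.4, 67.9 and 74.5% in the 4 mid-aged mice and 93.7, 60, 61.0 and 60.3% in the 4 young mice over 26 CpGs at chr2:152686854-152687148. Young mouse 1 stood alone at 93.7% there, in the shallowest library of the 8, with a median of 36 reads per CpG of that cluster. Young mice 2 and 3 had similar medians there, of 39 and 43 reads. At Peg13, a non-coding RNA inside Trappc9, the same mouse was again highest: the 6 CpGs at chr15:72809880-72809967 measured 58.1, 68.5, 41.3 and 47.9% in the 4 mid-aged mice and 94.4, 44.7, 66.9 and 39.6% in the 4 young mice. On the MspI fragment with 5 of these CpGs, the median reads were 41, 55, 56 and 51 in the mid-aged mice. In the young mice they were 18, 11, 28 and 73, so young mouse 2 had fewer reads than young mouse 1.

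Snrpn and Kcnq1ot1 control the Prader-Willi and the Kcnq1 clusters. The Snrpn promoter, which drives a spliceosomal protein and a long transcript of small nucleolar RNAs, was read in 2 neighbouring clusters. That over the start (chr7:60005042-60005228, 11 CpGs) measured 49.1, 62.5, 45.6 and 51.4% in the 4 mid-aged mice and 66.2, 67.2, 70.8 and 52.7% in the 4 young mice. Its means were 52.1% ± 7.28 against 64.2% ± 7.91 (SD, n = 4 each), a difference of -12.1 points (95% interval -23.5 to -0.617) with adjusted p = 0.515 (limma over all clusters). The cluster 235 bases inside the gene (chr7:60004852-60004900, 6 CpGs) measured 60.3, 53.9, 71.7 and 61.2% in the 4 mid-aged mice and 71.6, 51.5, 47.8 and 51.0% in the 4 young mice and pointed the other way, with a difference of 6.31 points (95% interval -7.00 to 19.6). Neither cluster passed the threshold. Kcnq1ot1, a non-coding RNA that silences the Kcnq1 cluster in cis, measured 52.5, 65.3, 38.6 and 56.0% in the 4 mid-aged mice and 56.3, 48.0, 71.4 and 57.0% in the 4 young mice at chr7:143295469-143295617 (11 CpGs), and both ages overlapped. Inside the clusters that these promoters steer, the only cluster of Ndn, a growth suppressor, lay at 18.6 to 34.2% in its coding exon. Mkrn3, a ubiquitin ligase, lay at 20.5 to 36.9% just upstream of its start, at 19.8 to 39.9% in the first part of its coding exon and at 76.1 to 91.9% further along it. Ube3a, the ubiquitin ligase of Angelman syndrome, had an unmethylated promoter of 0.338 to 1.15% over 53 CpGs.

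Grb10, an adaptor that restrains insulin signalling, kept opposite levels at its alternative starts. At the first, broadly used start 63 CpGs (chr11:12037001-12037436) lay between 2.01 and 4.21% in all mice. At the downstream start, known to be used in brain, the largest cluster (chr11:12025919-12026185, 22 CpGs, UTR) measured 58.1, 48.1, 57.7 and 56.0% in the 4 mid-aged mice and 73.2, 55.4, 65.4 and 54.5% in the 4 young mice. In all, 8 of the 40 genes had both a cluster under 10% and one at 30 to 70%, and in Igf2 and Dlk1 the latter lay in a coding exon. Inpp5f, a phosphoinositide phosphatase, was open at its main start (0.266 to 1.23%) and above the window at its internal imprinted start (79.7 to 86.8%). Peg10, a gene derived from a retrotransposon, shares its promoter with Sgce, which encodes a sarcoglycan, and the 13 CpGs there (chr6:4747355-4747489) measured 74.4, 61.5, 71.3 and 61.5% in the 4 mid-aged mice and 73.0, 77.0, 66.8 and 47.8% in the 4 young mice. Nap1l5, an intronless gene for a nucleosome assembly factor, lay at 72.9 to 85.5%, and Impact, a regulator of translation, at 58.4 to 72.7%. For Peg3 and Zim1, zinc finger genes of a shared cluster, both tested clusters of the Peg3 coding exon were at 92.7 to 99.3%, and the Zim1 start was at 0 to 4.52%. No cluster at the Peg3 promoter was tested.

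Igf2r, the receptor that clears the growth factor IGF2, hosts the control region of its antisense RNA Airn in an intron. The Igf2r promoter cluster was the largest near-50% cluster of all 40 genes (chr17:12769266-12769762, 62 CpGs, coding exon) and measured 64.1, 48.6, 52.2 and 53.9% in the 4 mid-aged mice and 60.2, 44.9, 60.2 and 48.7% in the 4 young mice. The means were 54.7% ± 6.64 against 53.5% ± 7.88 (SD, n = 4 each), and neither age stood apart. At the Airn start, the cluster at chr17:12741590-12741749 (10 CpGs) measured 58.5, 62.6, 65.3 and 60.8% in the 4 mid-aged mice and 80.2, 69.8, 74.5 and 66.2% in the 4 young mice. Every young mouse was above every mid-aged mouse there, with 61.8% ± 2.90 against 72.7% ± 6.06 (SD, n = 4 each) and a difference of -10.8 points (95% interval -18.6 to -3.07). This did not pass the threshold over all clusters (adjusted p = 0.377, limma). The next cluster, further into Airn (chr17:12742236-12742376, 6 CpGs), measured 65.0, 64.0, 52.7 and 61.0% in the 4 mid-aged mice and 47.8, 64.2, 58.6 and 49.7% in the 4 young mice and did not separate the ages.

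The Gnas locus, which encodes the stimulatory G protein subunit and several imprinted variants, held 21 of the 143 clusters. Gnas had 275 tested CpGs and its antisense RNA Nespas 162, in overlapping intervals, and 14 Gnas clusters had a mean of 30 to 70%. The largest near-50% cluster of Gnas, at its alternative first exon (chr2:174328544-174328729, 22 CpGs, UTR), measured 61.1, 50.6, 55.7 and 61.8% in the 4 mid-aged mice and 46.6, 67.8, 63.4 and 57.5% in the 4 young mice. A further cluster at chr2:174327850-174327928 (9 CpGs, UTR) differed by -8.20 points (95% interval -15.8 to -0.606, adjusted p = 0.503, limma), with overlapping groups. At the main Gnas promoter the mice lay at 0.278 to 1.59% over 24 CpGs (chr2:174330158-174330407). Among the Nespas clusters the largest near-50% one (chr2:174284851-174285133, 21 CpGs, coding exon of Gnas) measured 51.4, 54.5, 44.6 and 67.8% in the 4 mid-aged mice and 44.3, 53.2, 43.0 and 35.6% in the 4 young mice. Its mean difference was 10.6 points (95% interval -2.26 to 23.4) and the ages overlapped. Over all 162 CpGs Nespas measured 63.4, 59.5, 60.5 and 61.8% in the 4 mid-aged mice and 60.6, 59.0, 56.6 and 54.2% in the 4 young mice, with 61.3% ± 1.69 against 57.6% ± 2.77 (SD, n = 4 each) and adjusted p = 0.406 (limma over all genes).

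**Figure D3:**
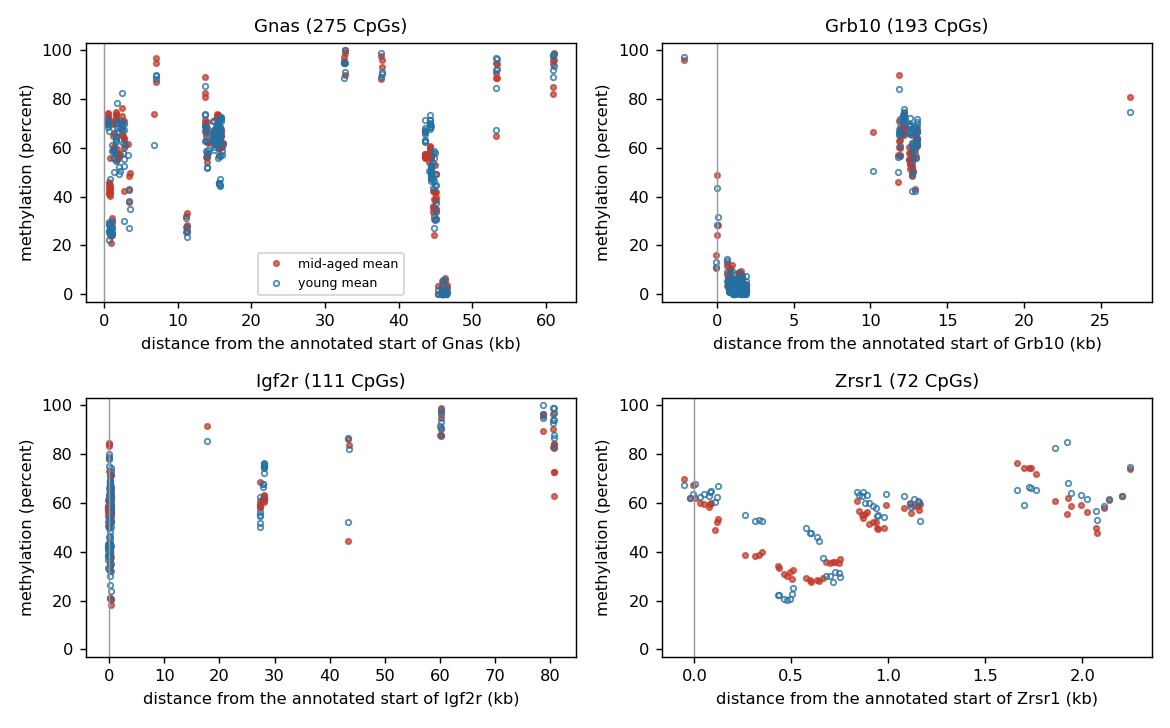
Methylation of each tested CpG (vertical axis, percent) as the mean of the 4 mid-aged mice (filled) and the 4 young mice (open) by distance from the annotated start (horizontal axis, kb) for Gnas, Grb10, Igf2r and Zrsr1. Gnas and Grb10 hold starts with levels under 10% and others at 30 to 70%, and at Zrsr1 the order of the 2 ages changes along the gene.

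The control regions with a paternal mark were hardly reached by RRBS. H19, a non-coding RNA expressed from the maternal copy, had 10 tested CpGs. At its 3′ end, 3 CpGs were read 302 to 1309 times per mouse. The first (chr7:142575795) measured 59.6, 58.2, 62.0 and 62.7% in the 4 mid-aged mice and 56.7, 63.3, 59.5 and 63.1% in the 4 young mice. The second (chr7:142575817) measured 57.5, 50.9, 55.1 and 55.6% in the 4 mid-aged mice and 52.7, 56.0, 53.0 and 54.1% in the 4 young mice. The third (chr7:142575863) measured 74.3, 66.0, 69.0 and 62.4% in the 4 mid-aged mice and 68.6, 69.2, 66.2 and 65.0% in the 4 young mice. None of the 3 separated the ages. The other 7 CpGs, upstream of the start, had group means of 69.5 to 91.8% in mid-aged and 74.4 to 88.3% in young mice, on as few as 7 and at most 74 reads per mouse. Among them, the CpGs at chr7:142581187, 142581230 and 142581386 lay between the CTCF sites at 2621 and 3647 bases. Their group means were 70.4 to 83.0% in mid-aged and 74.4 to 81.5% in young mice, on 16 to 70 reads per mouse. At the start of Meg3, a non-coding RNA of the Dlk1 cluster, 14 CpGs (chr12:109540807-109541148) measured 70.4, 57.0, 50.7 and 51.6% in the 4 mid-aged mice and 64.2, 44.2, 64.0 and 62.5% in the 4 young mice. The cluster of Rasgrf1, an exchange factor for RAS, at the gene start was at 2.39 to 5.38%. The intergenic control region of the Dlk1 cluster and the Rasgrf1 control region lie further upstream than 5000 bases and were not covered by the rule.

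Not every near-50% cluster was even over its CpGs. In 8 of the 17, the SD over CpGs was under 10 points, with 1.51 points at a Nespas cluster, 2.55 at Slc38a4, 2.82 at Plagl1 and 3.10 at Zrsr1. In the other 9 it reached from 10.3 to 25.7 points. The highest belonged to Cdkn1c, which encodes a cell cycle inhibitor and is silenced by Kcnq1ot1, and its 44 CpGs (chr7:143458918-143459399, coding exon) averaged 40.5, 39.4, 40.5 and 41.3% in the 4 mid-aged mice and 37.1, 39.2, 36.1 and 35.7% in the 4 young mice. The mid-aged mice all lay above the young mice, with a difference of 3.40 points (95% interval -3.15 to 9.94) and adjusted p = 0.778 (limma). This even average hid steps along the exon: MspI fragments with 6, 24 and 11 CpGs averaged 85.7, 34.4 and 20.1% over the 8 mice. Dlk1, a membrane protein of the Notch family, measured 60.3, 64.8, 59.5 and 62.1% in the 4 mid-aged mice and 67.0, 65.8, 67.0 and 64.8% in the 4 young mice at chr12:109459831-109460018 (15 CpGs, coding exon), with an SD over CpGs of 16.7 points. The other uneven clusters included 2 of Nespas and that at the Igf2r start. Whether any of the 17 acts as a control region was not tested, and they are named here by their gene.

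Magel2, Igf2, Nnat, H13 and Rian completed the near-50% set. Magel2, a ubiquitin ligase cofactor of the Prader-Willi cluster, measured 43.9, 53.6, 51.9 and 53.5% in the 4 mid-aged mice and 49.3, 51.0, 55.5 and 53.1% in the 4 young mice at chr7:62377549-62377805 (7 CpGs). The coding exon cluster of Igf2, a fetal growth factor, measured 58.2, 49.8, 52.8 and 60.5% in the 4 mid-aged mice and 57.7, 42.2, 52.6 and 44.1% in the 4 young mice at chr7:142654300-142654388 (6 CpGs). Nnat, a proteolipid of brain, measured 59.4, 59.8, 58.5 and 61.9% in the 4 mid-aged mice and 61.5, 64.0, 66.7 and 62.97% in the 4 young mice at chr2:157561444-157561777 (17 CpGs). These 3 lay in coding exons and not at a start, and their SD over CpGs was 13.2, 12.9 and 11.8 points. A UTR cluster near the 3′ end of H13, a signal peptide peptidase, measured 47.4, 49.9, 60.9 and 59.9% in the 4 mid-aged mice and 66.9, 57.3, 47.5 and 50.3% in the 4 young mice at chr2:152707348-152707706 (18 CpGs). Rian, a non-coding RNA downstream of Meg3, measured 64.5, 61.4, 64.0 and 65.1% in the 4 mid-aged mice and 37.3, 65.7, 55.5 and 54.2% in the 4 young mice at chr12:109608071-109608201 (6 CpGs, intron), where young mouse 1 was lowest and the groups overlapped.

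Over the 50 clusters with a mean of 30 to 70%, CpGs of a cluster resembled each other more than elsewhere. The median SD over CpGs was 5.85 points for imprinted clusters, 12.4 for 468 X clusters and 19.8 for 3570 other autosomal clusters of that level. The mice differed more: the median SD between mice within an age was 6.92 points for imprinted clusters, 4.90 on X and 4.99 on other autosomes, at median coverages of 63.2, 57.2 and 50 reads. The variance of the cluster mean was a median of 0.42 times that of a single CpG for imprinted clusters, 0.23 on X and 0.24 on other autosomes. These are descriptions of chosen sets, and no test was made of them. Young mouse 1, with the fewest reads, lay furthest from the mean of the 8, by 8.43 points on average, and the other 7 mice by 4.08 to 6.20 points. It was the highest mouse in 11 of the 50 clusters and the lowest in another 11.

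The deviations of a mouse changed from fragment to fragment. Neighbouring CpGs of imprinted genes at 30 to 70%, 20 to 100 bases apart and outside the MspI sites, disagreed in their deviations from the mean by a median of 4.89 points when they lay on the same MspI fragment (129 pairs) and by 13.1 points when a cut lay between them (21 pairs). In the rest of the genome the values were 9.80 points (7269 pairs) and 11.8 points (1019 pairs). Pairs across a cut were also further apart: their median distance was 55 bases against 30 for imprinted genes and 64 against 38 in the rest. The part of distance in these values was not tested. The example with the largest spread at the Gnas locus was a fragment of 104 bases in a coding exon. Its 9 CpGs averaged 63.8, 68.4, 49.3 and 63.1% in the mid-aged mice and 20.8, 39.2, 84.4 and 47.5% in the young mice. The fragment upstream (15 CpGs) averaged 83.4, 60.5, 69.4 and 66.0% in the mid-aged mice and 80.2, 58.0, 54.8 and 60.5% in the young mice, and that downstream (9 CpGs) 72.4, 58.7, 64.1 and 61.8% in the mid-aged mice and 73.8, 70, 67.5 and 64.4% in the young mice. Young mouse 1 was lowest on the middle fragment and among the highest on both neighbours, with a median of 16, 11 and 119 reads on the middle, upstream and downstream fragments. The fragment is printed with bases to either side and the MspI sites CCGG in capitals (GRCm38, plus strand).
Gnas, chr2:174299886-174300113: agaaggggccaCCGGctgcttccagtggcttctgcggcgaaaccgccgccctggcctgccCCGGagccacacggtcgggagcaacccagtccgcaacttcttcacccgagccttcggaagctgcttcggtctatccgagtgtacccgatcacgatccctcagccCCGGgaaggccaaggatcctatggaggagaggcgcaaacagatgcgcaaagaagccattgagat

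The comparison of ages asked whether methylation at imprinted genes differed between mid-aged and young hepatocytes. None of the 2245 CpGs was called by the quasi-binomial test with at least 5 points of difference and adjusted p under 0.05, where 0.163% of all tested CpGs were called in either direction. At an unadjusted p under 0.05 there were 240 CpGs (10.7%), against 9.09% of all tested CpGs. Of the 240, 160 (7.13% of the 2245) were higher and 80 (3.56%) lower in mid-aged mice, and over all tested CpGs 5.16% were higher and 3.93% lower. Limma on M values, the log-odds of the methylated fraction, called 4 of the 2245 CpGs and 1516 of all. None of the 143 clusters was called by limma, where 0.127% of all clusters were, and 12 (8.39%) had an unadjusted p under 0.05 against 9.20% of all. None of the 40 genes was called, where 0.521% of all genes were, and 3 (7.5%) had an unadjusted p under 0.05 against 11.7% of all. For clusters and genes, limma on M values called 0 as well, with 13 clusters (9.09%, against 9.19% of all) and 0 genes (against 22.9% of all) at an unadjusted p under 0.05. Over all features, limma on M values called 85 clusters lower and 40 higher of 54507, and 16 genes lower and 9 higher of 27445. With at least 10 reads in every mouse, 7 genes (17.5%) had an unadjusted p under 0.05 against 12.1% of all, so the share of genes lay below or above the background with the coverage minimum.

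The gene means bounded the age differences to different degrees. Mean differences ran from -4.48 to 3.69 points, 26 genes being higher and 14 lower in mid-aged mice, with a median of 0.54 points beside 0.23 points over all 27445 genes. The 95% interval lay within 5 points of 0 for 19 genes and within 10 points for 34. It was narrowest for Ube3a, with -0.166 points (95% interval -0.751 to 0.419), followed by Dio3, a deiodinase that inactivates thyroid hormone, with 0.222 points (95% interval -0.569 to 1.01). It was widest for Mcts2 with -0.965 points (95% interval -18.5 to 16.5) and wide for Kcnq1ot1 with -4.48 points (95% interval -19.7 to 10.7), Peg13 with -1.65 points (95% interval -15.5 to 12.2) and Mest with -2.70 points (95% interval -15.7 to 10.3). At the intermediate clusters a difference of 10 points was often not detectable by limma with moderated variances. The half-width of the interval exceeded 10 points in 27 of the 50 clusters at 30 to 70%, with a median of 10.6.

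**Figure D4:**
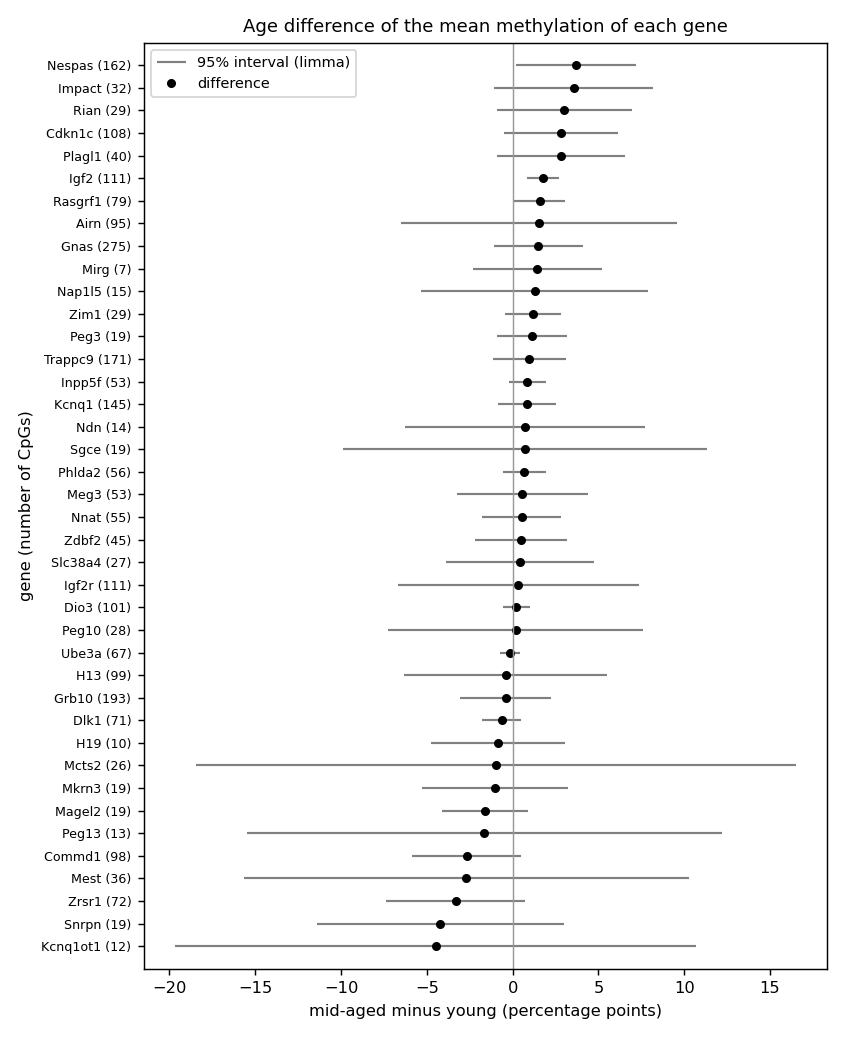
Difference in mean methylation between mid-aged and young mice (horizontal axis, percentage points) for each of the 40 genes with its number of CpGs, as the difference (point) and its 95% interval from limma (line). The intervals of Igf2, Rasgrf1 and Nespas exclude 0 before adjustment, and those of Kcnq1ot1, Mcts2, Mest, Peg13 and Sgce span more than 20 points.

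Igf2 was the gene with the smallest p-value. Over 111 CpGs it measured 21.4, 21.4, 20.5 and 20.7% in the 4 mid-aged mice and 18.6, 19.2, 20.1 and 19.0% in the 4 young mice. Every mid-aged mouse was above every young mouse, with 21% ± 0.451 against 19.2% ± 0.650 (SD, n = 4 each). The difference was 1.76 points (95% interval 0.823 to 2.71) with adjusted p = 0.142 (limma). Groups that did not overlap, in either direction, stood in 7.91% of all genes and in 1 of these 40. Igf2 had 7 clusters, of which 4 near its starts had means under 10%. In 2 of these the groups did not overlap, at chr7:142659523-142659610 with 7.15, 5.76, 6.15 and 5.78% in the 4 mid-aged mice and 0, 3.34, 2.67 and 4.44% in the 4 young mice (adjusted p = 0.232) and at chr7:142659194-142659375 with 7.08, 7.52, 6.11 and 5.19% in the 4 mid-aged mice and 2.44, 2.90, 4.88 and 4.70% in the 4 young mice (adjusted p = 0.301, limma). The differences were 3.60 and 2.74 points, and 6.16% of all clusters had groups that did not overlap. The other 2 low clusters had overlapping groups, with means of 5.34 against 4.47% and 2.73 against 2.07%, and so had a further start cluster with 21.5 against 19.0%. The CpG at chr7:142659543, in the first cluster named, had 14.3, 12.4, 11.6 and 7.62% in the 4 mid-aged mice and 0% each in the 4 young mice. The 96 reads of the young mice held no methylated read, which allows a share of up to 3.12% (3 reads of 96), and the mid-aged mice had 38 of 335 reads. Its adjusted p was 0.152 in the quasi-binomial test and 0.00287 in limma on M values, which called it. This CpG and the others named below for their p-values were chosen after their values were seen. CpGs chosen in this way tend to separate the ages, and the share of all tested CpGs that do so was not determined.

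Plagl1 held the other 3 CpGs that limma on M values called, all in a cluster near the first, upstream start of the gene and not at its imprinted start. At chr10:13061090 the mice measured 12.9, 14.6, 18.8 and 7.69% in the 4 mid-aged mice and 0% each in the 4 young mice. The 49 reads of the young mice held no methylated read, which allows up to 6.12%, and the mid-aged mice had 18 of 147. Its neighbours at 13061083 and 13061123 likewise had no methylated read in the young mice and averaged 7.78 and 10.3% in the mid-aged, on nearly the same reads. The quasi-binomial test gave the 3 CpGs adjusted p-values of 0.515, 0.367 and 0.417. Over the whole cluster of 21 CpGs the means were 8.61% ± 1.39 against 6.00% ± 2.73 (SD, n = 4 each) (adjusted p = 0.605, limma).

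Nnat and Igf2r carried the smallest p-values among the CpGs. At the Nnat start, the CpG at chr2:157560417 measured 84.8, 87.2, 87.4 and 87.3% in the 4 mid-aged mice and 82.8, 72.6, 72.4 and 80.6% in the 4 young mice. The groups did not overlap, with 86.7% ± 1.24 against 77.1% ± 5.38 (SD, n = 4 each) and an adjusted p of 0.0902 in the quasi-binomial test. Without young mouse 1 the adjusted p was 0.0163, and this CpG was then called. The cluster around it (chr2:157560098-157560477, 30 CpGs) measured 75.3, 77.5, 78.2 and 77.6% in the 4 mid-aged mice and 71.4, 73.9, 74.0 and 72.0% in the 4 young mice, and a cluster upstream of it (chr2:157557853-157557940, 6 CpGs) had the opposite sign with 79.1, 84.8, 82.1 and 78.7% in the 4 mid-aged mice and 89.3, 85.4, 91.5 and 90.8% in the 4 young mice. Both had groups that did not overlap, as 11 of the 143 clusters did (7.69%, against 6.16% of all clusters), and neither passed the threshold (adjusted p = 0.515 and adjusted p = 0.223, limma). In a coding exon far downstream in Igf2r, the CpG at chr17:12689079 measured 88.5, 78.0, 74.3 and 90% in the 4 mid-aged mice and 100, 100, 94.7 and 100% in the 4 young mice. Its cluster (chr17:12689024-12689226, 9 CpGs) measured 84.4, 76.6, 77.1 and 85.6% in the 4 mid-aged mice and 97.1, 87.8, 95.4 and 89.6% in the 4 young mice, a difference of -11.5 points (95% interval -17.9 to -5.16) with adjusted p = 0.233 (limma). With Igf2, these genes held the 3 CpGs of lowest p, and the next 9 lay in Zdbf2, Trappc9, Nnat, Gnas, Grb10, Igf2r and Igf2, with adjusted p-values of 0.183 to 0.277.

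Gnas, Zdbf2, Grb10 and Rian gave examples at both ends of the scale. In the alternative first exon of Gnas, within the near-50% cluster, the CpG at chr2:174328587 measured 63.1, 55.4, 62.95 and 61.4% in the 4 mid-aged mice and 82.5, 70.3, 71.4 and 69.5% in the 4 young mice. All young mice were higher there, with young mouse 1 the highest, and the adjusted p was 0.241 (quasi-binomial). At the Zdbf2 start, the deeply read CpG at chr1:63273288 measured 3.84, 6.55, 5.65 and 3.61% in the 4 mid-aged mice and 0, 0, 1.47 and 1.76% in the 4 young mice. Upstream of the first Grb10 start, the CpG at chr11:12037848 measured 9.96, 13.8, 11.6 and 6.14% in the 4 mid-aged mice and 4.54, 0, 5.21 and 3.45% in the 4 young mice. Both lay low and were higher in every mid-aged mouse, without passing the threshold, and both had been chosen for their small p-values. In Rian, the CpG at chr12:109614595 measured 56.7, 52.0, 46.0 and 46.0% in the 4 mid-aged mice and 53.1, 73.2, 75.9 and 55.6% in the 4 young mice. Its adjusted p was 0.283 with all mice and 0.0356 without young mouse 1, which lay inside the mid-aged range, as did young mouse 4.

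At low-methylated starts, small differences were measured with a narrow spread. Rasgrf1 had the cluster with the smallest p-value, at its start (chr9:89910013-89910416, 27 CpGs), with 5.38, 4.32, 4.78 and 4.73% in the 4 mid-aged mice and 2.39, 3.28, 2.69 and 3.13% in the 4 young mice. The difference was 1.93 points (95% interval 0.992 to 2.86) with adjusted p = 0.170 (limma), and no mouse of one age entered the range of the other. At the first Grb10 start the 63 CpGs averaged 3.80% ± 0.277 against 2.43% ± 0.411 (SD, n = 4 each), with adjusted p = 0.287 (limma). At Zdbf2, a zinc finger gene linked to body weight, the start cluster of 35 CpGs averaged 5.80% ± 0.157 against 5.70% ± 2.40 (SD, n = 4 each) and did not separate the ages. Phlda2, a brake on placental growth, averaged 2.95% ± 0.560 against 2.27% ± 1.07 (SD, n = 4 each) over 56 CpGs and Dio3 13.9% ± 0.436 against 13.7% ± 0.488 (SD, n = 4 each) over 101 CpGs. The mid-aged libraries were on the whole the deeper ones, and the part of depth in these differences was not tested.

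The remaining genes did not pass the threshold. Kcnq1, a potassium channel, averaged 59.4% ± 0.798 against 58.6% ± 0.858 (SD, n = 4 each) over 145 CpGs, Trappc9 85.1% ± 0.786 against 84.1% ± 1.3 (SD, n = 4 each) over 171 and Cdkn1c 37.0% ± 2.84 against 34.2% ± 1.53 (SD, n = 4 each) over 108. Meg3 averaged 78.4% ± 1.45 against 77.8% ± 3.19 (SD, n = 4 each) over 53 CpGs and Dlk1 25.2% ± 0.738 against 25.8% ± 0.623 (SD, n = 4 each) over 71. Trappc9, a trafficking factor, was methylated over most of its body, and Dlk1 was open at its start (0.611 to 4.15%). Mirg averaged 88.6% ± 2.68 against 87.1% ± 2.17 (SD, n = 4 each) over 7 CpGs and Rian 74.7% ± 0.985 against 71.7% ± 3.52 (SD, n = 4 each) over 29. Airn, Sgce, Peg10, H13, Ndn, Mkrn3, Magel2, Zim1, Peg3, Nap1l5, Inpp5f, Impact and Slc38a4 had unadjusted gene-level p-values by limma of 0.104 to 0.956. The young mice spread more than the mid-aged mice in 34 of the 40 genes (85.0%), compared with 68.5% of all genes, with a median SD of 2.79 against 1.44 points, while the young libraries were on the whole the shallower ones.

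The mean over the 17 near-50% clusters was 57.0, 55.6, 57.0 and 58.7% in the mid-aged mice and 53.8, 57.8, 56.5 and 52.8% in the young mice. Group means were 57.1% ± 1.26 against 55.3% ± 2.32 (SD, n = 4 each). The ages overlapped, 9 clusters were higher and 8 lower in mid-aged mice, and the window bounds the difference, so no test was made. Over the 50 clusters with a mean of 30 to 70% the groups were at 57.2% ± 0.77 and 56.9% ± 2.58, with 25 clusters higher and 25 lower.

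Among 41 further imprinted genes tested, 1 was called by limma over all genes, where 0.521% of all genes were. The called gene was Casd1, named after its values were seen, which acetylates sialic acids and lies beside Sgce and Peg10. It measured 24.9, 24.5, 24.9 and 25.5% in the mid-aged and 21.5, 22.6, 22.3 and 22.8% in the young mice, a difference of 2.66 points (95% interval 1.75 to 3.57) with an adjusted p of 0.0384. Of these genes 7 (17.1%) had an unadjusted p under 0.05, against 11.7% of all genes. Of their 1792 CpGs, 1 was called by the quasi-binomial test, where 0.163% of all CpGs were, and 2 by limma on M values, where 1516 of all 897285 were. An unadjusted p under 0.05 in the quasi-binomial test was found for 186 of them (10.4%), against 9.09% of all CpGs. Among 20 genes for factors that set or keep imprints, such as the methyltransferases Dnmt1 and Dnmt3a and the zinc finger genes Zfp57 and Zfp445, none was called by limma on percentages and none had an unadjusted p under 0.05. None of their 1114 CpGs was called by the quasi-binomial test, and limma on M values called 2. In the quasi-binomial test 91 (8.17%) had an unadjusted p under 0.05, against 9.09% of all CpGs.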

How the data were processed

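Libraries were made by RRBS from hepatocytes of 4 mid-aged and 4 young mice. Per the labels, the authors' processing named Trim Galore 0.4.2, BWA 0.6.2, SAMtools 1.3, Picard 1.115 and FastQC on mm10. For the caller of methylation, the labels give no program. The deposited files give, for each strand of a CpG, the percent of methylated reads and the count of reads as the authors' pipeline called them. Here methylated reads were rebuilt from percent and count, strands were summed, and CpGs with at least 5 reads in every mouse were kept. Each CpG was tested by a quasi-binomial model of age on the read counts with moderated dispersion, and called at an adjusted p under 0.05 (Benjamini-Hochberg over all CpGs) and a difference of at least 5 points. A CpG call also needed a variance of the methylated fraction under 0.05 in both groups. Clusters and genes (at least 3 CpGs) were tested on mean percent by limma 3.58.1 in R 4.3.3 with moderated variances and p-values adjusted over all clusters or genes. They were called at an adjusted p under 0.05, clusters with a difference of at least 5 points and genes with no minimum difference. Other steps used Python 3.11.15, numpy 2.4.6, pandas 2.3.3, pysam 0.24.0, samtools 1.23.1 and matplotlib 3.10.9. The scripts were tested on simulated data. Sequences came from the RefSeq copy of GRCm38. Gene names and features came from the GENCODE annotation of that build.

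By the naming rule, every gene was accounted for, and values per mouse were due for the largest near-50% cluster of each gene and for called CpGs, clusters and genes. Since no CpG, cluster or gene was called, further ones were chosen after their values were seen. The genes and lists were chosen with earlier results of these data known. Alternatives were at least 10 reads, limma on M values, a cluster gap of 50 bases, the gene body alone, a window of 40 to 60%, the replicate number as a block and leaving out each mouse. The mean over the 8 mice as the near-50% rule was added after seeing the data. Replicate numbers did not pair the mice. No pair of libraries were copies, since at most 0.961% of CpGs had equal counts in both.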

Additional observations from a re-analysis of the deposited data

Results flagged for a closer look

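In 13 of 180 groups of 4 mice, covering the 40 genes and the clusters with a mean of 30 to 70%, a mouse lay far from the other 3 of its age by Dixon's criterion. Chance gives about 1 in 20 groups, or 9 here, so these are listed as values only.

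Young mouse 1, the shallowest library, accounted for 5 of them. It measured 93.66% at Mcts2, both as a gene and as the cluster at its start, where the other young mice lay at 60 to 61.04%. At H13, which contains Mcts2 and shares those CpGs, it measured 76.55% against 66.21 to 66.75%. At Zdbf2 it measured 17.88% against 12.45 to 13.16%. At the Snrpn cluster inside the gene it measured 71.58% against 47.8 to 51.51%.

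Mid-aged mouse 4 measured 31.25% at Ndn against 27.51 to 28.04%, and 63.28% at a Gnas cluster upstream of the main promoter against 55.28 to 56.56%. It measured 27.93% at the Nespas cluster nearest to its start, where the other mid-aged mice lay at 39.39 to 41.19%. Mid-aged mouse 1 measured 75.12% at a Gnas cluster in a coding exon against 63.58 to 65.28%, and 68.19% at a Zrsr1 cluster downstream against 75.82 to 76.64%.

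Young mouse 2 measured 44.17% at the Meg3 start against 62.46 to 64.15%. Young mouse 4 measured 51.9% at Slc38a4 against 64.14 to 66.01%. Young mouse 3 measured 59.87% for Kcnq1 against 58.01 to 58.29%, a gap of little size.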

How the results depend on the processing

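No cluster and no gene of the 40 was called under any alternative run. For CpGs the count of calls was 0 with at least 10 reads, for the gene body alone and with the replicate block, 4 with limma on M values (Igf2 and Plagl1), and 0 to 2 when each mouse was left out in turn. The calls in the last came without young replicate 1, for Nnat and Rian. That run called 1409 CpGs lower and 996 higher of all 897285, against 914 and 552 with all mice. With at least 10 reads, 946 CpGs were called lower and 570 higher of all 680385. Clusters called in that setting were 47 lower and 37 higher of all 42837, and genes 69 lower and 104 higher of all 25412. With a mouse left out, 3 to 24 clusters of all 54507 were called lower and 7 to 15 higher. For genes these counts were 20 to 51 lower and 32 to 59 higher of all 27445. The replicate numbers correlated by -0.013 to 0.021 across clusters and did not pair the mice. The replicate block left 0 CpGs, 0 clusters and 0 genes of the 40 called. Over all features it called 0 CpGs, 0 clusters, and 7 genes lower and 15 higher. The absence of called CpGs and clusters in that run was thus not particular to imprinted genes. With the block, 108 CpGs (4.81%), 12 clusters (8.39%) and 2 genes (5.0%) had an unadjusted p under 0.05, against 3.98%, 8.48% and 10.3% of all. With at least 10 reads 7 genes had an unadjusted p under 0.05, in place of 3. The near-50% set depended on its window. At 40 to 60% it held 7 CpGs and 1 cluster, at Magel2, whose difference between the ages was -1.51 points, and by the mean over the 8 mice, a rule chosen after seeing the data, 718 CpGs and 50 clusters. The difference of the near-50% clusters was 1.02 to 2.69 points with a mouse left out. The sign of the difference changed in up to 8 of the 40 genes under an alternative. Depth limited young mouse 1 most, with a median of 28 reads per CpG of these genes.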
